A study of Mus musculus with 26 samples.

Results

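Of the 94074 autosomal peaks of accessible chromatin in the deposited table of inbred mice, 2721 (2.89%) were called in Kupffer cells of BALB/cJ mice and not in those of C57BL/6J mice. A peak belonged to this set, named BALB/cJ-only here, when it overlapped by at least 1 bp a reproducible peak of BALB/cJ in both states, control and LPS, and none of C57BL/6J in either state. Reproducible peaks were those the study's irreproducible discovery rate (IDR) step kept, a step that ranks peaks by how well replicate libraries agree. Chromosomes 1 to 19 were used, apart from a short stretch near the start of chromosome 11 that the rule leaves out, and coordinates are those of mm10. The set was thus chosen by BALB/cJ and C57BL/6J peak calls, and the BALB/cJ and C57BL/6J levels at it are a description with no test. What the rule did not use was the A/J strain, the F1 hybrid and the sequence.

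Libraries were made by ATAC-seq, in which a transposase cuts open DNA, from Kupffer cells sorted out of the non-parenchymal liver fraction. A/J controls (4 libraries), BALB/cJ mice 2 h after LPS (2), BALB/cJ controls (4), C57BL/6J mice 2 h after LPS (3) and C57BL/6J controls (4) made up the 17 inbred libraries. CB6F1/J mice, the first-generation cross of BALB/cJ females with C57BL/6J males, gave 5 animals after LPS and 4 controls. LPS was injected into the peritoneum at 0.1 mg/kg, controls of that experiment received no injection, and its animals were male littermates fasted overnight. Mice of the study were 8 to 12 weeks old. The free-text descriptions of the LPS-treated hybrid samples list file names of control animals, whereas titles, treatment labels and column names agree, and groups were taken from titles and treatment labels. Library names of LPS and control animals carry different dates, so LPS and library date cannot be told apart. Each library is treated as 1 animal, which the labels do not state for the inbred mice, so the spread between inbred libraries may be technical.

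Kupffer cells are the resident macrophages of the liver sinusoids, where they clear particles, old red cells and bacterial products from portal blood. Their enhancers are bound by the lineage factor PU.1 together with factors such as MAF proteins, C/EBP, AP-1, liver X receptors and SMADs, and LPS acts through TLR4 to bring NF-kB, AP-1 and interferon regulatory factors to inducible sites. A strain difference at an enhancer can follow the local DNA (in cis) or the surroundings of the DNA, such as factor levels and tissue signals (in trans). In an F1 hybrid both parental alleles sit in the same nucleus, so a difference between alleles is measured within 1 animal and 1 set of factors.

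The sites below were chosen for print because the results turn on them: 4 had more tags on the BALB/cJ allele in LPS-treated and control hybrids, and that near Grk5 did not. They lie at chr14:105300679-105300879 (intron 5 of 7 of Ndfip2), chr12:26438810-26439010 (intergenic, 17542 bp from the start of Rsad2), chr8:84420606-84420806 (intron 1 of 47 of Cacna1a), chr5:43737067-43737267 (intron 35 of 37 of Cc2d2a, with Fbxl5 as the gene of nearest start) and chr19:60889163-60889363 (promoter of Grk5). Letters are the plus strand of mm10, which carries the C57BL/6J alleles, so BALB/cJ bases that differ are not shown. Capitals mark exact matches, on either strand, to C/EBP (TTGCNNAA) in Ndfip2, a MAF core (TGCTGA) in Rsad2, AP-1 (TGANTCA) running into a MAF core and 2 nuclear receptor cores (AGGTCA) in Cacna1a, AP-1 and IRF (AANNGAAA) in Fbxl5, and IRF and NF-kB (GGNNTTTCC) in Grk5.
Ndfip2: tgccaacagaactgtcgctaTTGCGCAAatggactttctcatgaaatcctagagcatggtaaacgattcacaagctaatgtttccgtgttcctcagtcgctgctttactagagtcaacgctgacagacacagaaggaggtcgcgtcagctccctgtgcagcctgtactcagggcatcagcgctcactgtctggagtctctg
Rsad2: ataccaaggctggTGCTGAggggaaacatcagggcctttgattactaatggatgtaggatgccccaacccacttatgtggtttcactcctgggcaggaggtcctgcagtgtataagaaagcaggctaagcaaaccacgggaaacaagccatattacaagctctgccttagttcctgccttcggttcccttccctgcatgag
Cacna1a: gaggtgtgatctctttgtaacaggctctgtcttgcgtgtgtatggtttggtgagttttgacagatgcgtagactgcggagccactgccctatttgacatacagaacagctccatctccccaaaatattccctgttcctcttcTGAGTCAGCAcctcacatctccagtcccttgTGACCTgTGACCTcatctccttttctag
Fbxl5: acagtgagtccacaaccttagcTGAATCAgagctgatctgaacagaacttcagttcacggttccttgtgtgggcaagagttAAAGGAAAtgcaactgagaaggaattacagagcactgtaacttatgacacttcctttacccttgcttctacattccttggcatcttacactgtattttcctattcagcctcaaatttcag
Grk5: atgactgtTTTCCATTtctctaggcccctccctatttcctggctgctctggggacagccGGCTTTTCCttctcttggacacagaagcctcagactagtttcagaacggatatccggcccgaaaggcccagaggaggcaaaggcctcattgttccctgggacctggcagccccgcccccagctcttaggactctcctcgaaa

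Inbred libraries held 2043717.5 to 7410616.5 autosomal tags in peaks, apart from BALB/cJ control replicate 4 with 46271987. The autosomal IDR lists were of unequal size. They held 57758 peaks in BALB/cJ with LPS, 79307 in BALB/cJ controls, 63839 in C57BL/6J with LPS and 61726 in C57BL/6J controls. The part of depth and list size in membership was not tested. Hybrid animals held 11426830 to 24929143.5 tags mapped perfectly to the BALB/cJ genome, while 262899 to 573430.5 tags per animal and allele spanned a variant. A normalised count is a tag count divided by the library's TMM-scaled size relative to the geometric mean over the libraries of that table, within 1000 bp around a peak. Kupffer cell markers were open in every library: summed normalised counts at 15 promoter peaks of 9 of 10 Kupffer cell markers were 1035–1119 in A/J, 531–599 in BALB/cJ with LPS, 1014–1263 in BALB/cJ controls, 574–762 in C57BL/6J with LPS and 954–1138 in C57BL/6J controls. Promoter peaks of sinusoidal endothelial markers (3 peaks, 2 of 7 genes) summed to 18.8–49 in A/J, 46–55.9 in BALB/cJ with LPS, 33.6–92.2 in BALB/cJ controls, 26.7–43 in C57BL/6J with LPS and 15.5–23.6 in C57BL/6J controls. Those of neutrophil markers (3 peaks, 2 of 5 genes) summed to 93.3–146 in A/J, 91.9–96.1 in BALB/cJ with LPS, 129–176 in BALB/cJ controls, 122–144 in C57BL/6J with LPS and 146–183 in C57BL/6J controls. Per peak, neutrophil markers were thus not far below Kupffer cell markers, with 42.9–58.8 against 67.6–84.2 in BALB/cJ controls and 40.7–48.1 against 38.3–50.8 in C57BL/6J with LPS. The 1 monocyte marker peak had 4.75–10.4 in A/J, 6.11–29.2 in BALB/cJ with LPS, 1.34–3.92 in BALB/cJ controls, 21–34.2 in C57BL/6J with LPS and 6.54–18.1 in C57BL/6J controls, so it was higher with LPS in both strains. Hepatocyte markers had 1 promoter peak, and stellate and lymphocyte markers had 0. Whether the endothelial, neutrophil or monocyte signal had a part in strain or LPS differences was not tested, and in sorted bulk cells a smaller share of open cells and less cutting per cell cannot be told apart.

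In the inbred strains the set was open in BALB/cJ, intermediate in A/J and low, but seldom empty, in C57BL/6J. Without 1 peak on chromosome 1 described at the end, the other 2720 peaks took 0.861–1.0% of autosomal tags in peaks in A/J, 2.09–2.15% in BALB/cJ with LPS, 1.14–1.44% in BALB/cJ controls, 0.588–0.671% in C57BL/6J with LPS and 0.395–0.508% in C57BL/6J controls. The 5 groups did not overlap in this share, but BALB/cJ and C57BL/6J calls chose the set, so the separation of these strains is description. Median normalised counts per peak were 10.4 in A/J, 25 in BALB/cJ with LPS, 14.3 in BALB/cJ controls, 8.97 in C57BL/6J with LPS and 6.43 in C57BL/6J controls. The median log2 ratio of BALB/cJ over C57BL/6J was 1.24 in controls and 1.48 with LPS. It exceeded 1 at 57.4% of the set in controls and at 70.5% with LPS, beside 9.11% and 11.5% of all peaks. In 1199 of the 2721 peaks the lowest BALB/cJ control lay above the highest C57BL/6J control, beside 7.71% of all peaks, from which nothing is read since these calls chose the set.

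**Figure D1:**
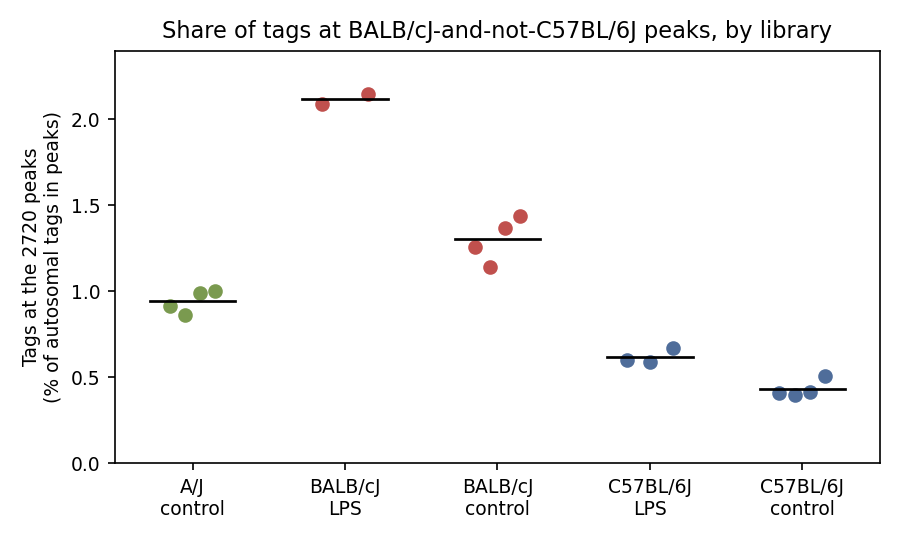
Percent of autosomal tags in peaks that fell in the BALB/cJ-only peaks (2720, without the chromosome 1 peak), 1 point per library, by strain and treatment. The A/J libraries lie at 0.861–1.0%, the BALB/cJ libraries at 1.14–2.15% and the C57BL/6J libraries at 0.395–0.671%.

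Absence from the C57BL/6J IDR lists was often a matter of degree. Loose peaks of single libraries, called before the IDR step, overlapped 364 of the set in 0 of 7 C57BL/6J libraries and 292 in all 7. The median BALB/cJ to C57BL/6J log2 ratio was 3.94 in controls and 4.63 with LPS for the 364 peaks, and 0.59 and 0.83 for the 292 peaks. Just outside the rule, 4900 peaks in both BALB/cJ lists and exactly 1 C57BL/6J list had medians of 0.37 and 0.57. Just inside it, the smallest overlaps with a BALB/cJ list were 15 bp (control) and 6 bp (LPS). Windows of 145 peaks overlapped that of another peak of the set, so those counts are not independent.

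A/J, a strain the rule did not use, shared part of the peaks, and how many depended on the calling. A reproducible A/J control peak lay at 958 of 2721 (35.2%), beside 59.3% of all autosomal peaks, whereas a peak in at least 2 single A/J libraries, called before the IDR step, lay at 2156 (79.2%). This looser call was not counted over all peaks, so 79.2% has no share to be read against. A reproducible A/J peak lay at 23.9% of the 1496 peaks called in C57BL/6J and not BALB/cJ (C57BL/6J-only) and at 92.9% of the 39528 called in all 4 lists of these strains. No A/J LPS library was analysed, so a peak open only with LPS in A/J would be missed. At the 958 peaks with an A/J peak, the median A/J log2 ratio was −0.07 over BALB/cJ and 1.67 over C57BL/6J controls. At the other 1763 it was −0.75 over BALB/cJ and 0.22 over C57BL/6J. These ratios share the libraries that chose the set and are description. On the log2(normalised count + 1) scale the A/J mean was nearer the BALB/cJ than the C57BL/6J mean at 858 of the 958 and at 703 of the 1763, or 57.4% in all. The lowest A/J library lay above the highest C57BL/6J control at 739 peaks (6.96% of all peaks did), the highest A/J library lay below the lowest BALB/cJ control at 478 (5.69%), and 1587 overlapped both strains. Same-numbered control libraries of A/J and the other strains deviated together (r 0.15 to 0.40 with C57BL/6J, 0.10 to 0.52 with BALB/cJ), which these overlap counts do not take into account.

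In the hybrid, reproducible peaks called on variant-spanning tags of 1 allele were found more often on the BALB/cJ allele. With LPS, 884 of the set (32.5%, beside 14.5% of all peaks) overlapped a BALB/cJ allele peak and 412 (15.1%, beside 13.5%) a C57BL/6J allele peak. In controls, 480 (17.6%, beside 9.17%) overlapped a BALB/cJ allele peak and 138 (5.07%, beside 9.29%) a C57BL/6J allele peak. Counting instead a peak in at least 2 single libraries, the BALB/cJ and C57BL/6J alleles had 1041 (38.3%) and 817 (30%) with LPS, and 769 (28.3%) and 467 (17.2%) in controls, a narrower gap. These looser counts were not made over all peaks, so only the alleles of the set are compared. The C57BL/6J-only peaks gave the opposite picture on reproducible peaks, with 334 BALB/cJ and 672 C57BL/6J allele peaks with LPS, and 107 and 457 in controls.

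The allele counts themselves showed the same skew in every animal. Of the set, 2214 peaks matched a peak of the hybrid table over at least 50% of each peak, and no minimum count was applied to the following share. The BALB/cJ allele held 76.4% ± 1.02 of variant-spanning tags at these peaks with LPS (SD, n = 5, range 75–77.6%) and 75.5% ± 0.258 in controls (SD, n = 4, range 75.2–75.8%). At peaks called in all 4 lists it held 49.4% ± 0.0837 with LPS and 49.2% ± 0.171 in controls, and at C57BL/6J-only peaks 19.5% ± 0.907 and 20.6% ± 0.889. The share was 79.1% ± 1.01 with LPS and 77.7% ± 0.271 in controls where A/J had a peak, and 72.6% ± 1.66 and 71% ± 0.835 where it had none. It was 88.2% ± 1.14 with LPS and 85.9% ± 1.39 in controls at the peaks seen in 0 C57BL/6J libraries, and 71.7% ± 0.912 and 71.3% ± 0.44 at the rest.

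**Figure D2:**
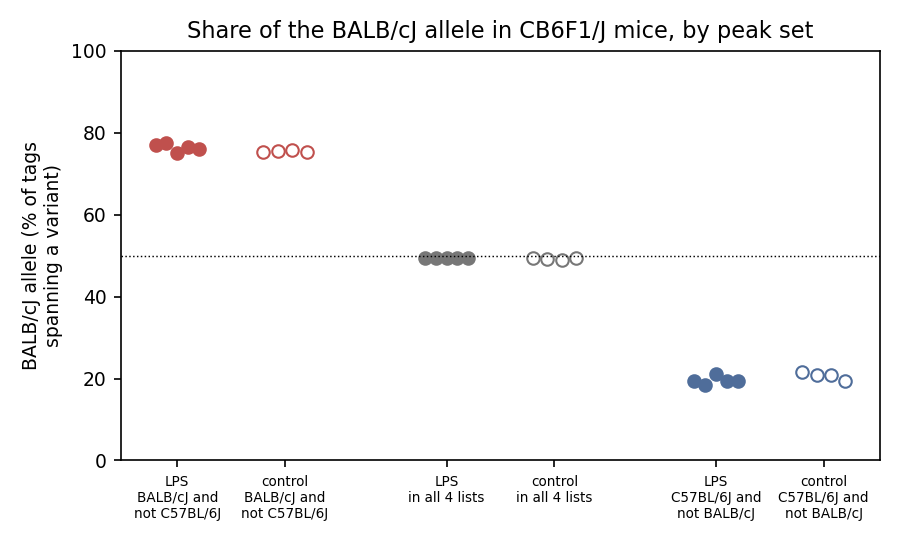
Percent of variant-spanning tags on the BALB/cJ allele in each CB6F1/J animal (filled, LPS, n = 5; open, control, n = 4) for BALB/cJ-only peaks, peaks in all 4 strain lists and C57BL/6J-only peaks; the dotted line is 50%. Animals of the 3 sets do not overlap: 75–77.6%, 49–49.5% and 18.5–21.5%.

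Only peaks with a variant between the strains within reach of a read can be scored this way. No variant-spanning tag was counted at 1344 of the 2214 matched peaks (60.7%, beside 78.9% of all matched peaks). That share was 46.7% where A/J had a peak and 68.6% where it had none. Peaks with a variant tag had a median BALB/cJ to C57BL/6J log2 ratio of 2.23 in inbred controls, against 0.92 for those without. Over all 9 animals, 756 of the 870 peaks with variant tags had more on the BALB/cJ allele, 98 had more on the C57BL/6J allele and 16 had equal numbers. Among the 318 peaks with at least 200 tags, 304 had more on the BALB/cJ allele.

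Peak by peak, alleles were tested by edgeR's quasi-likelihood test with the animal as a block, on all autosomal hybrid peaks with a mean normalised count over 16, and all adjusted P values are Benjamini-Hochberg values over all peaks tested. A call needed an adjusted P under 0.05 and a log2 ratio over 1 in size. With LPS, 192 of 263 tested BALB/cJ-only peaks were called with the BALB/cJ allele higher and 1 with the C57BL/6J allele higher, beside 8.31% and 10.4% of all 6729 tested peaks (8.49% and 10.1% of those matched to an inbred peak). In controls, 70 of 108 were called with the BALB/cJ allele higher and 0 with the C57BL/6J allele higher, beside 4.28% and 4.97% of 4483 (4.65% and 5.43% of matched ones), and DESeq2 also called 82 and 0. No peak with the C57BL/6J allele higher had an unadjusted P under 0.05 in controls. Most tested peaks passed the minimum through the BALB/cJ allele alone: the C57BL/6J allele averaged 16 or less at 183 of 263 with LPS and at 87 of 108 in controls, and peaks that passed this way had to differ. Where the C57BL/6J allele also averaged over 16, 32 of 80 were called with LPS and 6 of 21 in controls. The lowest BALB/cJ value lay above the highest C57BL/6J value at 165 tested peaks with LPS and 71 in controls, beside 8.08% and 6.49% of all tested peaks. The other 1951 matched peaks with LPS and 2106 in controls were below the minimum. Without control replicate 1, 19 control calls were left, and with no minimum count 0 of 861 passed in controls. C57BL/6J-only peaks mirrored this, with 186 of 235 called for the C57BL/6J allele with LPS and 70 of 104 in controls.

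**Figure D3:**
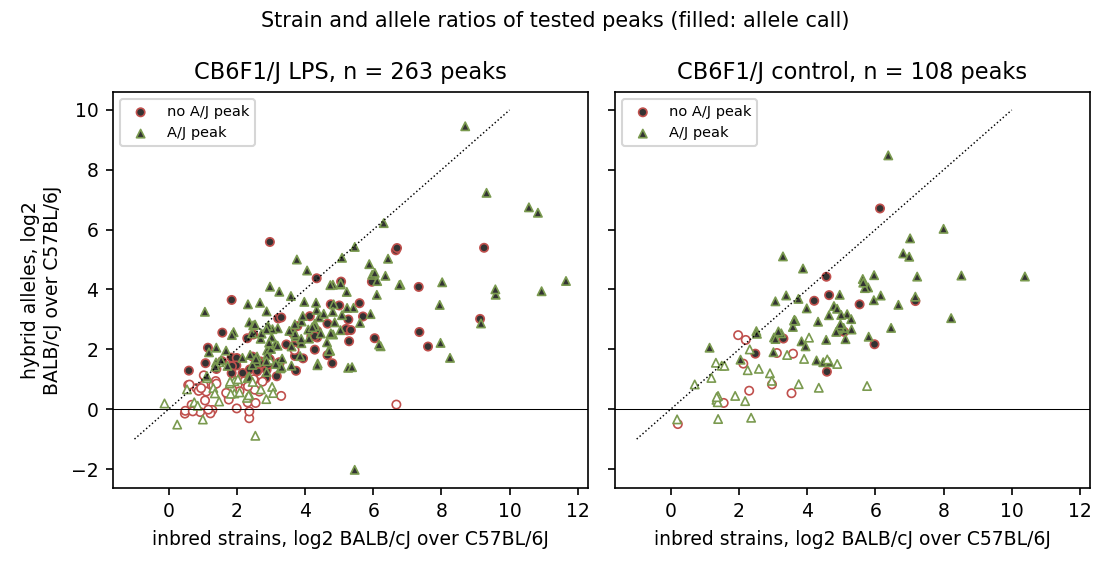
Each tested BALB/cJ-only peak by its log2 BALB/cJ over C57BL/6J ratio in inbred mice (x) and between alleles of CB6F1/J mice (y), with LPS (left, 263 peaks) and in controls (right, 108); triangles have an A/J peak, circles do not, filled symbols were called and the dotted line marks equal ratios. Allele ratios lie below the inbred ratio, on which the set was selected, at 225 peaks with LPS and 96 in controls.

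Allele and inbred ratios of the tested peaks are set side by side as a description, since inbred peak calls chose the set, which favours large inbred ratios, and most tested peaks passed the minimum through the BALB/cJ allele. Over the tested peaks the median was 1.96 between alleles and 3.04 between strains with LPS, and 2.50 and 3.97 in controls. Across peaks, which are not independent, Pearson's r was 0.69 with LPS (n = 263) and 0.71 in controls (n = 108), and Spearman's rho 0.72 and 0.73. An inbred log2 ratio over 2 with an allele ratio under 0.5 in size was found at 10 of 198 peaks with LPS and 2 of 92 in controls. Of 87 peaks tested in both states, 56 were called for BALB/cJ in both, 4 in controls only and 19 with LPS only, which does not show that the states differ.

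The peak in Ndfip2, an adaptor that recruits Nedd4-family ubiquitin ligases, held one of the strongest allele contrasts. Inbred normalised counts were 110, 170, 188 and 168 in A/J, 275 and 264 in BALB/cJ with LPS, 126, 146, 190 and 190 in BALB/cJ controls, 0 in all 3 C57BL/6J with LPS, and 1.14, 0, 2.59 and 0 in C57BL/6J controls. A/J and BALB/cJ controls overlapped, and C57BL/6J was near 0. In LPS-treated hybrids the BALB/cJ allele had 330, 347, 210, 323 and 255, and the C57BL/6J allele 17.9, 8.22, 9.77, 17.3 and 21.1. In control hybrids the BALB/cJ allele had 88.2, 130, 108 and 89.6, and the C57BL/6J allele 2.6, 2.25, 7.14 and 6.69. The alleles did not overlap in either state. The log2 allele ratio was 4.28 ± 0.19 with LPS (SE, adjusted P = 4.65e-06) and 4.43 ± 0.34 in controls (adjusted P = 0.00223). The C57BL/6J allele averaged 14.9 with LPS and 4.67 in controls. The site thus passed the minimum through the BALB/cJ allele alone, and its alleles had to differ.

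Cacna1a encodes the pore of a voltage-gated calcium channel of neurons, and its intronic site overlaps an L1ME1 repeat. Inbred counts were 169, 127, 152 and 150 in A/J, 79.5 and 79.5 in BALB/cJ with LPS, 168, 178, 133 and 140 in BALB/cJ controls, 0, 0 and 3.19 in C57BL/6J with LPS and 0.569, 1.55, 1.3 and 2.62 in C57BL/6J controls. Hybrid BALB/cJ and C57BL/6J alleles averaged 86.5 ± 5.2 and 2.75 ± 2.31 with LPS (SD, n = 5), a log2 ratio of 4.85 ± 0.38 (adjusted P = 4.48e-05). They averaged 81.7 ± 22.1 and 2.2 ± 2.55 in controls (SD, n = 4), a ratio of 5.2 ± 0.55 (adjusted P = 0.00449). In both states this site passed the minimum through the BALB/cJ allele alone, so its alleles had to differ. Mxra7 carried a weaker contrast at chr11:116814619-116814819 (intron 2 of 4), with alleles at 73 ± 17.3 and 10.6 ± 7.57 with LPS (log2 2.84 ± 0.39, adjusted P = 0.000769) and 114 ± 14.1 and 21.7 ± 4.1 in controls (log2 2.4 ± 0.19, adjusted P = 0.00223). With LPS the Mxra7 site too passed the minimum through the BALB/cJ allele alone.

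Several strong sites had no counterpart in A/J. An intergenic peak 17095 bp from the start of Myoc, which encodes the secreted glycoprotein myocilin (chr1:162621955-162622155), had 0, 2.15, 0 and 0 in A/J, 97.8 and 87.5 in BALB/cJ with LPS, 104, 104, 126 and 114 in BALB/cJ controls, 1.4, 3.42 and 7.97 in C57BL/6J with LPS and 3.41, 0, 0 and 1.31 in C57BL/6J controls. A/J thus lay with C57BL/6J here. The hybrid BALB/cJ allele had 153, 186, 113, 165 and 201 with LPS, and the C57BL/6J allele 21.3, 46.2, 19.5, 57.9 and 70.7. In controls these were 80.2, 106, 127 and 100 on the BALB/cJ allele and 16.4, 28.1, 21.4 and 25.8 on the C57BL/6J allele. The C57BL/6J allele was well above 0 in every hybrid, and the log2 ratios of 1.99 ± 0.2 with LPS (adjusted P = 0.000167) and 2.17 ± 0.19 in controls (adjusted P = 0.00372) were below the inbred values of 4.29 and 5.97.

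Cd300ld, a member of the CD300 family of myeloid cell surface receptors, had a peak at its transcript end (chr11:114981959-114982159). Inbred counts were 1.55, 7.54, 0 and 1.58 in A/J, 83 and 84.8 in BALB/cJ with LPS, 147, 150, 130 and 112 in BALB/cJ controls, 9.82, 7.69 and 9.56 in C57BL/6J with LPS and 10.8, 3.1, 5.18 and 6.54 in C57BL/6J controls. The hybrid BALB/cJ allele had 210, 210, 97.5, 152 and 177 with LPS, against 27.3, 18.5, 9.77, 35.4 and 11.6 on the C57BL/6J allele. In controls it had 240, 168, 153 and 186, against 15.6, 32.6, 3.06 and 13.4. No values overlapped between alleles, and the log2 ratio was 3.03 ± 0.24 with LPS (adjusted P = 4.94e-05) and 3.62 ± 0.39 in controls (adjusted P = 0.00479, lost without control replicate 1).

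The site nearest Fbxl5, which encodes the iron-sensing subunit of a ubiquitin ligase, was also closed in A/J (0, 2.15, 0 and 0). BALB/cJ had 61.1 and 86.6 with LPS and 36.3, 43.1, 61 and 67.8 in controls, and C57BL/6J 1.4, 3.42 and 1.59 with LPS and 2.28, 0, 0 and 2.62 in controls. Hybrid alleles averaged 75.3 ± 20.8 for BALB/cJ and 6.7 ± 2.42 for C57BL/6J with LPS (log2 3.47 ± 0.2, adjusted P = 1.07e-05), and 43.8 ± 20.5 and 6.99 ± 2.18 in controls (log2 2.59 ± 0.33, adjusted P = 0.00705, lost without control replicate 1). Both times the Fbxl5 site passed the minimum through the BALB/cJ allele alone, so its alleles had to differ. Osm, the interleukin-6 family cytokine oncostatin M, had a peak 3925 bp from its start (chr11:4232760-4232960) with 14, 4.31, 10.4 and 9.49 in A/J, 93.4 and 122 in BALB/cJ with LPS and 88.8, 98, 213 and 94.4 in BALB/cJ controls. C57BL/6J had 1.4, 4.27 and 25.5 with LPS and 3.98, 3.1, 2.59 and 3.93 in controls. It held 0 variant-spanning tags, so its alleles could not be compared.

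**Figure D4:**
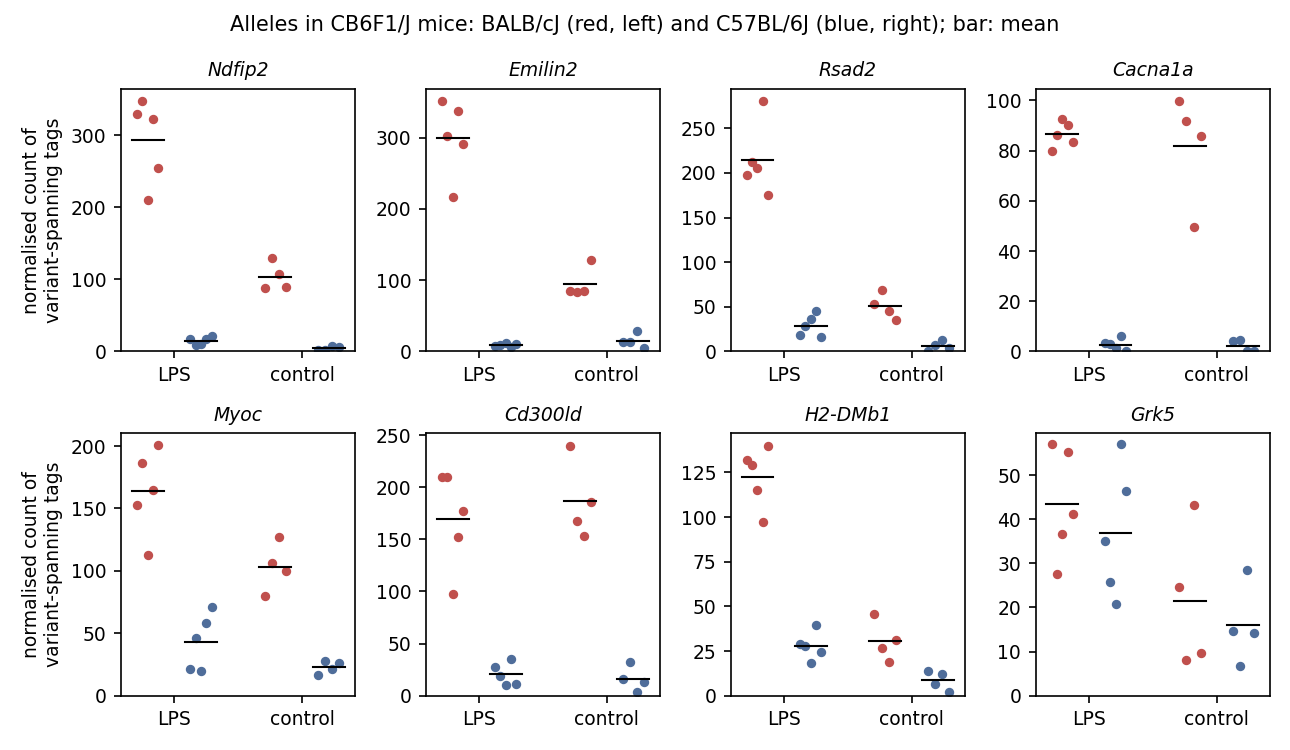
Normalised counts of variant-spanning tags on the BALB/cJ (red) and C57BL/6J (blue) allele at 8 peaks named by their gene, 1 point per CB6F1/J animal, with LPS (n = 5) and in controls (n = 4); bars are means. The alleles separate fully at Ndfip2, Emilin2, Rsad2, Cacna1a, Myoc, Cd300ld and H2-DMb1, and overlap at Grk5.

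Among interferon-response genes, sites near Rsad2, Ifi44 and Ifit1 had more tags on the BALB/cJ allele. Of 216 peaks nearest 28 interferon-response genes, 7 (3.24%) were BALB/cJ-only, and the BALB/cJ allele was called higher at 4 of 4 tested with LPS and 3 of 3 in controls, beside 192 of 263 and 70 of 108 for the whole set. The 3 sites tested in controls passed the minimum through the BALB/cJ allele alone, with C57BL/6J means of 6.17, 6.98 and 12.6, and so had to differ. With LPS the same held for the sites nearest Ifit1, with C57BL/6J means of 13 and 15 against 65.5 and 42.5 on the BALB/cJ allele. A second site near Rsad2 (chr12:26444087-26444287) fell below the minimum, with 16.6 on the BALB/cJ and 13.7 on the C57BL/6J allele with LPS, and 5.37 and 7.3 in controls. Rsad2, the antiviral radical-SAM enzyme viperin, had 55.9, 71.1, 60.4 and 44.3 in A/J, 123 and 149 in BALB/cJ with LPS, 47.1, 63.7, 47.5 and 53.7 in BALB/cJ controls, 4.21, 12.8 and 8.76 in C57BL/6J with LPS and 1.71, 4.65, 2.59 and 0 in C57BL/6J controls, at a site within an MTD-int long terminal repeat. The hybrid BALB/cJ allele had 198, 212, 205, 280 and 175 with LPS, against 17.9, 28.8, 36.6, 44.9 and 15.8 on the C57BL/6J allele, a log2 ratio of 2.93 ± 0.17 (adjusted P = 1.01e-05). In controls it had 52.9, 68.7, 45.4 and 35, against 0.866, 6.74, 13.3 and 3.82, a ratio of 3.14 ± 0.54 (adjusted P = 0.0155, lost without control replicate 1, 2 or 4). The promoter peak of Ifi44, an interferon-induced gene (chr3:151749903-151750103), had 55.9, 30.2, 89.6 and 94.9 in A/J, 109 and 93.7 in BALB/cJ with LPS, 57.8, 50.9, 59.7 and 97.3 in BALB/cJ controls, 5.61, 14.5 and 8.76 in C57BL/6J with LPS and 9.1, 7.74, 5.18 and 5.23 in C57BL/6J controls. Its hybrid alleles averaged 109 ± 26.6 for BALB/cJ and 34.2 ± 11.1 for C57BL/6J with LPS (log2 1.69 ± 0.19, adjusted P = 0.000242), and 41.1 ± 13.5 and 6.98 ± 3.46 in controls (log2 2.53 ± 0.37, adjusted P = 0.00947, lost without control replicate 1). A site nearest Ifit1, whose product binds foreign RNA, lies in intron 5 of 6 of Slc16a12 (chr19:34673629-34673829) and had log2 allele ratios of 2.36 ± 0.23 with LPS (adjusted P = 0.00014) and 1.63 ± 0.32 in controls (adjusted P = 0.0234, lost without control replicate 1, 2 or 4 and without the animal block). Since Rsad2, Ifit1 and Ifi44 were chosen with earlier results of these data known, their count is no separate evidence about the interferon group.

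Of antigen presentation genes, 15 class I genes had 0 BALB/cJ-only peaks among 73 and 11 class II genes had 3 among 100 (3%, near the 2.89% of all peaks). The peak nearest H2-DMb1, a chain of the H2-DM peptide loader, lies in intron 3 of 5 of H2-DMb2 (chr17:34150139-34150339), and reads from these near-identical genes may not be assigned uniquely. It had 0, 4.31, 2.08 and 1.58 in A/J, 84.7 and 76 in BALB/cJ with LPS, 30.9, 23.5, 23.1 and 15 in BALB/cJ controls, 8.42, 5.98 and 4.78 in C57BL/6J with LPS and 2.84, 0, 1.3 and 5.23 in C57BL/6J controls. With LPS the hybrid BALB/cJ allele had 132, 129, 115, 97.4 and 140, against 29, 27.7, 18.3, 39.7 and 24.3 on the C57BL/6J allele (log2 2.12 ± 0.2, adjusted P = 0.000121). In controls the values were 45.8, 26.8, 19 and 31.2 against 13.9, 6.74, 12.2 and 1.91, and the log2 ratio of 1.88 ± 0.5 missed the threshold (adjusted P = 0.0636). The peak of H2-Ob, a chain of the inhibitor of H2-DM (chr17:34250649-34250849), passed in controls and not with LPS. Its alleles averaged 48.5 ± 8.82 for BALB/cJ and 44.2 ± 11.9 for C57BL/6J with LPS (log2 0.14 ± 0.2, adjusted P = 0.666), and 44.7 ± 19.8 and 11.9 ± 3.14 in controls (log2 1.86 ± 0.26, adjusted P = 0.0085, lost without control replicate 1). In controls the H2-Ob peak passed the minimum through the BALB/cJ allele alone.

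A few sites with an inbred difference had balanced alleles. At the promoter of Grk5, a kinase of G-protein-coupled receptors, inbred counts were 26.4, 23.7, 18.8 and 30.1 in A/J, 34.1 and 33.6 in BALB/cJ with LPS, 28.2, 22.5, 31.2 and 36.2 in BALB/cJ controls, 12.6, 5.13 and 18.3 in C57BL/6J with LPS and 9.1, 7.74, 20.7 and 10.5 in C57BL/6J controls. Hybrid alleles had 57, 27.7, 36.6, 55.3 and 41.1 for BALB/cJ and 35, 25.7, 20.8, 57 and 46.4 for C57BL/6J with LPS, and 24.7, 8.16, 43.3 and 9.73 for BALB/cJ and 14.7, 6.74, 28.6 and 14.3 for C57BL/6J in controls. They overlapped in both states, with log2 ratios of 0.26 ± 0.21 (adjusted P = 0.415) and 0.31 ± 0.35 (adjusted P = 0.665). Of the 87 peaks tested in both states, 4 had ratios under 0.5 in size in both, the others being near Dcps, Ccdc38 and Cym. The site near Cym had little inbred difference in controls, with 13.9 ± 10.7 in BALB/cJ and 11.6 ± 7.09 in C57BL/6J (SD, n = 4 each).

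Among tested peaks, 13 with LPS and 4 in controls had a log2 allele ratio below 0, and a single peak was called against its strain. It lies in intron 1 of 2 of the non-coding gene 9530026P05Rik (chr6:92941360-92941560) and was chosen after its values were seen, as the only BALB/cJ-only peak called for the C57BL/6J allele. Inbred counts were 41.9, 14, 8.34 and 41.1 in A/J, 137 and 101 in BALB/cJ with LPS, 192, 216, 283 and 251 in BALB/cJ controls, 8.42, 0 and 1.59 in C57BL/6J with LPS and 1.71, 1.55, 0 and 6.54 in C57BL/6J controls. In LPS-treated hybrids the BALB/cJ allele had 5.26, 12.8, 7.31, 4.39 and 7.2, and the C57BL/6J allele 35.8, 37, 15.9, 25.9 and 33.8. The log2 ratio was −2.03 ± 0.33 (adjusted P = 0.0017). With a BALB/cJ mean of 7.39, this peak passed the minimum through the C57BL/6J allele alone, so its alleles had to differ. Controls fell below the minimum, with means of 2.75 ± 1.51 on the BALB/cJ allele and 11.1 ± 5.54 on the C57BL/6J allele. All perfectly mapped tags there, most of which span no variant, came to 141–236 in LPS-treated and 143–203 in control hybrids.

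Whether the allele difference changed with LPS was tested as an interaction in all 9 hybrids. Of 182 tested peaks, 0 were called with a higher and 0 with a lower LPS to control ratio on the BALB/cJ allele, beside 0.0351% and 0.0526% of 5703 peaks (0.0405% and 0.0405% of matched ones). At an unadjusted P under 0.05 there were 27, and DESeq2 called 1 higher and 2 lower. The smallest adjusted P, 0.091, belonged to H2-Ob, with a log2 interaction of −1.71 ± 0.34. The largest interaction among the named sites was at Emilin2, an extracellular matrix glycoprotein (chr17:71259836-71260036, intron 4 of 7). There the BALB/cJ allele had 351, 302, 217, 337 and 291 with LPS and 84.6, 82.7, 84.5 and 128 in controls, against 7.67, 9.24, 12.2, 6.05 and 10.5 with LPS and 13, 13.5, 28.6 and 4.78 in controls on the C57BL/6J allele. Its interaction was 2.37 ± 0.52 (adjusted P = 0.133), with log2 allele ratios of 5.06 ± 0.19 with LPS (adjusted P = 4.65e-06) and 2.72 ± 0.44 in controls (adjusted P = 0.0134, lost without control replicate 1). The C57BL/6J allele averaged 9.14 with LPS and 14.9 in controls, so this site passed the minimum through the BALB/cJ allele alone.

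In the hybrid far more of these sites were called higher than lower with LPS, which cannot be told apart from library date. Among 2214 tested peaks, 682 were higher and 48 lower with LPS, beside 14.3% and 10.5% of all 210197 hybrid peaks (21.6% and 9.38% of those matched to an inbred peak). The 48 became 75 with RLE scaling, 86 with library totals, 82 with DESeq2 and 110 on all tags mapped to the BALB/cJ genome, the tag set first planned. Control columns of all tags do not hold the same data as those of perfectly mapped tags, so the 110 is not a like-for-like alternative. The median log2 ratio of LPS over control was 0.62, beside 0.15 for matched and −0.09 for all peaks. Scaling by library totals moved these medians to 0.48, 0.01 and −0.22, so changes are read relative to the other peaks. Peaks without an A/J peak gave 540 higher and 12 lower of 1416, and those with one gave 142 higher and 36 lower of 798. A/J peaks were called in controls alone, so this split also sorts sites by their level without LPS. Median BALB/cJ counts were 12.1 without and 22.7 with an A/J peak in controls, but 23.7 and 27.3 with LPS. The part of this sorting in the difference was not tested. C57BL/6J-only peaks gave 278 higher and 54 lower of 1198. Membership required a BALB/cJ peak with LPS, which the hybrid libraries did not enter but which favours sites open with LPS. The test used tags that map perfectly to the BALB/cJ genome, so a site with few variants counts both alleles.

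**Figure D5:**
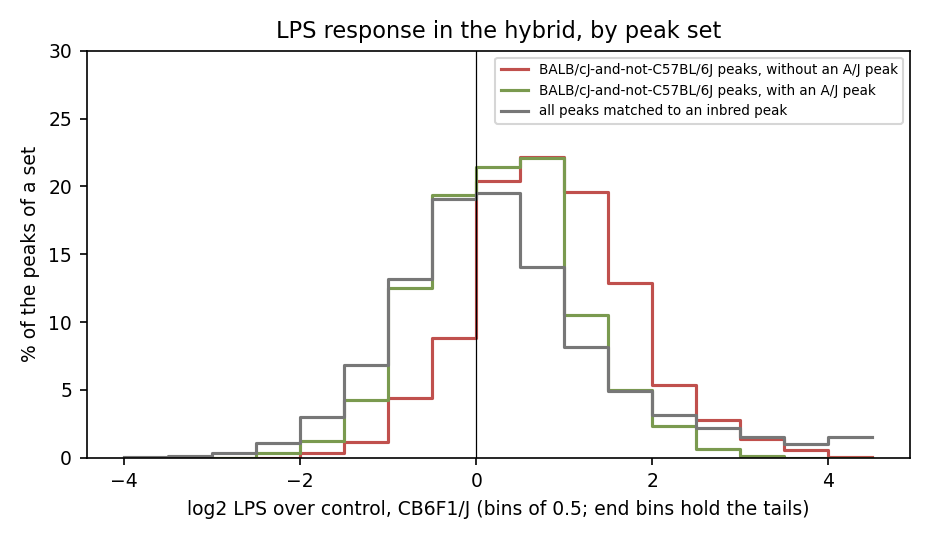
Distribution of the log2 LPS over control ratio in CB6F1/J mice (x, bins of 0.5) as percent of the peaks of each set (y): BALB/cJ-only peaks without an A/J peak (n = 1416), with one (n = 798), and all hybrid peaks matched to an inbred peak. The set without an A/J peak sits to the right, with a median of 0.82 against 0.29 for the set with one and 0.15 for all matched peaks. A/J peaks were called in controls alone, so the split also sorts sites by their level without LPS.

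Sites near Cd9, Zdhhc2 and Soat1 were named for the smallest P values of a gain with LPS, and those near Plin2, Abca1 and Dusp5 passed the test in the lipid and the AP-1 and MAF gene lists. An intergenic site 50681 bp from the start of Cd9, a tetraspanin (chr6:125443979-125444179), had 243, 166, 215, 251 and 174 perfectly mapped tags per LPS-treated hybrid, normalised, against 23.5, 19.6, 10.3 and 23.6 in control hybrids. Its log2 ratio was 3.42 ± 0.29 (adjusted P = 4.38e-10). Inbred counts there were 6.21, 6.46, 6.25 and 3.16 in A/J, 55 and 55.7 in BALB/cJ with LPS, 12.1, 22.5, 14.9 and 6.55 in BALB/cJ controls, 7.01, 7.69 and 25.5 in C57BL/6J with LPS and 4.55, 1.55, 2.59 and 0 in C57BL/6J controls. With LPS the hybrid BALB/cJ allele averaged 31 ± 11 and the C57BL/6J allele 11 ± 2.76 (log2 1.46 ± 0.3, adjusted P = 0.00595). For this allele test the Cd9 site passed the minimum through the BALB/cJ allele alone. Zdhhc2, a palmitoyltransferase, had a site at 169 ± 28.5 with LPS and 8.78 ± 6.12 in controls (log2 4.32 ± 0.38, adjusted P = 9.1e-10). Soat1, the enzyme that esterifies cholesterol, had one in intron 3 of 15 at 164 ± 23.3 and 14.9 ± 5.63 (log2 3.47 ± 0.32, adjusted P = 1.47e-09). Plin2, a lipid droplet coat protein, had one at 188 ± 37.9 and 15.6 ± 10 (log2 3.55 ± 0.34, adjusted P = 4.76e-09), where the alleles did not pass the test with LPS (23.3 ± 11.3 on BALB/cJ, 19.8 ± 9.07 on C57BL/6J, log2 0.22 ± 0.25, adjusted P = 0.578). The site near Abca1, a cholesterol exporter, was just past the threshold (log2 1.02, adjusted P = 0.0451). On variant-spanning tags the Soat1 call was lost, at a log2 ratio of 2.21. Dusp5, a phosphatase of ERK kinases, had one at 204 ± 45.9 and 22.5 ± 21.4 (log2 3.13 ± 0.43, adjusted P = 1.79e-06).

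Sites called lower with LPS were few. The peak nearest Gna12, a G-protein alpha subunit (chr5:140842035-140842235), had 51.4, 59.7, 72.7, 60.1 and 13.5 with LPS and 183, 190, 137 and 379 in controls (log2 −2.11 ± 0.33, adjusted P = 1.2e-05). On all tags mapped to the BALB/cJ genome, whose control columns do not hold the same data, the Gna12 ratio was −0.74, below the size a call needs.

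Pathway lists are given as counts. Over the whole set, 30.8% of tested peaks were higher and 2.17% lower with LPS. All hybrid peaks had 14.3% and 10.5%, and those matched to an inbred peak 21.6% and 9.38%. Lists of so few sites were not tested against the set. Of 9 peaks nearest TLR4 pathway genes (of 161, 5.59%, the highest share of the 10 pathway lists), 5 were higher with LPS and 0 lower, with the nearest start that of Tlr4 (2 sites), its co-receptor Ly96 (1 site) or Tab2 (2 sites), an adaptor of the kinase TAK1. One Tlr4 site lay 651151 bp and one Tab2 site 168195 bp from that start, so 3 of the 5 higher sites lay within 100 kb. Among sites not called, a Tlr4 site lay 620458 bp and a Map3k7 site 183574 bp away. The 5.59% thus includes distant sites assigned by nearest start. Of the cell marker lists, sinusoidal endothelium had 3 of 42 peaks in the set (7.14%), Kupffer cells 11 of 178 (6.18%) and stellate cells 1 of 3. The other marker lists had 0. At Tab2 (chr10:7937727-7937927, intron 1 of 6) counts were 79.8 ± 18 with LPS and 19.7 ± 15.7 in controls (log2 2.02 ± 0.47, adjusted P = 0.00144), and at Ly96 (chr1:16696655-16696855, intron 2 of 4) 84.6 ± 24.7 and 33.1 ± 14.2 (log2 1.36 ± 0.37, adjusted P = 0.00567). Without control replicate 4 the Ly96 ratio was 0.99, and on variant-spanning tags summed over both alleles 0.36, both under the size a call needs. Interferon genes had 3 of 7 higher, lipid genes 2 of 5, Kupffer cell identity genes 2 higher and 1 lower of 14, AP-1 and MAF genes 1 of 7, NF-kB genes 1 of 6, class II genes 1 of 2, the study's example genes 1 of 4 and LPS cytokines 0 of 4. Sinusoidal endothelial marker genes had 2 of 3 higher, and their part in other results was not tested. The lower identity site was near Mrc1, the mannose receptor (14.9 ± 11.1 with LPS, 60 ± 22.9 in controls, log2 −1.98 ± 0.56, adjusted P = 0.00803), and the higher identity sites were near Csf1r, the receptor for macrophage colony-stimulating factor, and Smad6, an inhibitor of BMP signalling. Rsad2 (log2 1.53 ± 0.24, adjusted P = 1.01e-05) and H2-DMb1 (log2 1.29 ± 0.24, adjusted P = 0.000139) were also higher with LPS. On tags mapped perfectly to the C57BL/6J genome the H2-DMb1 ratio was 0.86, under the size a call needs.

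Kupffer cell identity genes held 20 BALB/cJ-only peaks of 710 (2.82%, close to 2.89% overall), 6 of them around Clec4f, the lectin that marks Kupffer cells. The peak 3423 bp from the start of Clec4f (chr6:83659439-83659639) had 32.6, 24.8, 64.6 and 52.2 in A/J, 36.7 and 37.1 in BALB/cJ with LPS, 47.1, 12.7, 110 and 147 in BALB/cJ controls, 7.01, 10.3 and 14.3 in C57BL/6J with LPS and 10.8, 12.4, 15.5 and 17 in C57BL/6J controls. BALB/cJ control replicate 2 lay within the C57BL/6J range, beside 12.4 in the same-numbered C57BL/6J library. It matched no hybrid peak over 50%. A Timd4 site, near the gene of a phosphatidylserine receptor of resident macrophages (chr11:46846061-46846261), averaged 44.1 ± 11.6 in A/J, 45.1 ± 13.2 in BALB/cJ controls and 10.6 ± 2.11 in C57BL/6J controls. No identity gene had a site with enough variant tags for an allele test. The peak nearest Cxcl1, a neutrophil chemokine, gave a log2 allele ratio of 0.86 ± 0.23 with LPS (adjusted P = 0.0232), under the size a call needs.

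By the deposited annotation the set, like the C57BL/6J-only peaks, lay less often in promoters than all peaks. Introns held 50.2% (43.7% of all peaks), intergenic DNA 38% (34.5%), promoters 5.77% (15.1%, and 7.09% of C57BL/6J-only peaks) and CpG islands 0.698% (2.9%), and the median distance to a gene start was 20.1 kb (10.9 kb, and 15.4 kb for C57BL/6J-only peaks). Long terminal repeats held 9.04%, beside 7.11% of all peaks and 11.4% of C57BL/6J-only peaks. Over the 201 bases of each peak, the AP-1 letters occurred in 16.6% (14.3% of all peaks), the MAF core in 23.5% (18.6%), C/EBP in 13.8% (11.5%) and the nuclear receptor core in 17.9% (15%). The PU.1 letters (GAGGAAGT) occurred in 8.71% (8.6%), IRF in 23.9% (24.2%), NF-kB in 4.37% (5.33%), the E-box TCACGTG in 2.57% (2.53%) and CTCF (CCACNAGGG) in 1.47% (1.84%). AP-1 letters were in 11.6% of peaks with an A/J peak and 19.4% of those without. C57BL/6J-only peaks had AP-1 letters in 13.8%, the MAF core in 18.8% and IRF in 29.5%. All letters are C57BL/6J ones, so a site that BALB/cJ gained or lost by mutation would be misread, and no test was made.

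Some BALB/cJ-only peaks lay close together, and so did C57BL/6J-only peaks. Another peak of the set lay within 10 kb of 19.8% and within 50 kb of 40.6% (19.3% and 36.6% for C57BL/6J-only peaks). The sets differ in size and no such share was computed for all peaks, so nothing particular to the set is read from this. Linked at 50 kb, the largest run had 10 peaks at chr9:40709349-40776745 near Clmp and Hspa8, followed by 9 near Smndc1 and Mirt1 and 8 near Tnfrsf21. Clec4f lay in a run of 6, and so did Lpin2 and Emilin2. By chromosome the share of peaks in the set ran from 1.75% on chromosome 11 to 3.46% on chromosome 9.

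The highest counts of the set belonged to an intergenic peak at chr1:24612971-24613171, 25634 bp from the start of Col19a1, and this peak was singled out after its values were seen. It had 20228, 15814, 20370 and 17954 in A/J, 18345 and 10351 in BALB/cJ with LPS, 15313, 17692, 16041 and 17054 in BALB/cJ controls, 2.81, 2.56 and 2.39 in C57BL/6J with LPS and 1.71, 1.55, 23.3 and 0 in C57BL/6J controls. Hybrids had 73646, 84581, 53900, 54449 and 70013 with LPS and 45245, 79758, 41266 and 49875 in controls, all on tags with no variant. It was the only peak of the set, and 1 of 8 among all peaks, to share 30-base words with the mitochondrial genome (142 of its 172 words). C57BL/6J control columns held 0 mitochondrial tags in peaks, against 688124.5 to 15995064.5 in the other inbred libraries, C57BL/6J with LPS included. The part of mitochondrial reads in the counts of this peak, and of that difference between libraries in the set, was not tested.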

How the data were processed

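ATAC-seq libraries of sorted mouse Kupffer cells (CD146-negative, CD45-positive, F4/80-high, CD11b-intermediate live singlets) were used as the authors deposited them. The authors trimmed reads to 30 bp, mapped them with Bowtie2 to each strain's genome (mm10 with the strain's small variants), shifted positions to mm10 with MMARGE, called peaks with HOMER and kept those passing IDR. The authors deposited raw tag counts per 1000 bp window around each peak. Some deposited columns are expected counts in steps of 0.5 (39.7–49.7% of values not whole in the inbred control columns concerned), which were rounded up. Scores of the deposited IDR lists served 1 alternative (the higher-scoring peaks), and of the deposited single-library peak files, whose signal column is a normalised tag count, positions alone were used. For alleles the authors counted perfectly mapped tags that span a variant, so a site without one has no allele value, and larger structural differences between the strains are not in the genomes.

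Here edgeR 4.0.16 (quasi-likelihood test, TMM scaling, R 4.3.3) was fitted over all autosomal hybrid peaks with mean normalised counts over 16 (alleles, with animal as block, and interaction) or over 4 (LPS response), and P values were adjusted by the Benjamini-Hochberg method over all peaks tested. DESeq2 1.42.0, other scalings, minima, tag sets and single left-out animals were alternatives. The LPS response was planned on all tags mapped to the BALB/cJ genome. In control hybrids these did not vary with perfectly mapped tags of the same replicate number (r −0.03 to 0.01, against 0.99 with LPS). Perfectly mapped tags were thus used, a choice made after seeing the data. Autosomal totals of all tags in control replicates 1 to 4 were 10368389, 8848362, 16704016 and 6796571.5. Those of perfectly mapped tags, which should be a part of them, were 17530435, 11426830, 13253932.5 and 14446712.5. In replicates 1, 2 and 4 the part exceeded the whole. The control columns of all tags thus do not hold the same data, and the reason was not tested. Fits were tested on simulated counts of a single fixed spread, with no effect shared by the alleles of an animal. Changes were placed only at peaks well above the minimum, so these simulations do not cover alleles near 0. Hybrid replicate numbers did not pair LPS and control animals (r −0.04 to 0.03). Same-numbered inbred control libraries deviated together (r 0.15 to 0.40 for A/J with C57BL/6J, 0.10 to 0.52 for A/J with BALB/cJ, 0.09 to 0.44 for BALB/cJ with C57BL/6J, 4 pairs each), though no label says what a number marks, and medians with the block are in the closing section.

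Named sites were taken by rule from sites within 100 kb of a gene whose symbol is not a predicted or clone name: the smallest P values for alleles, LPS response and interaction, the balanced sites with most tags, the highest BALB/cJ control levels with and without an A/J peak, up to 3 sites per gene list, and the study's example genes. Others named are said to be chosen after their values were seen, and sites named only for a list's count are examples of those that passed the test in that list, chosen after their values were seen. The set and the gene lists were chosen with earlier results of these data known. Reads carried no molecular identifiers. A few sites that the rule named are not reported here.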

Additional observations from a re-analysis of the deposited data

Results flagged for a closer look

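Among 130 groups of 4 or 5 samples, 12 (9.23%) had 1 sample set apart from the others by Dixon's criterion, where chance gives about 5%. LPS-treated hybrid replicate 3 had a BALB/cJ allele share of 77.3% at peaks with an A/J peak, against 79.4–79.7% in the others, and control hybrid replicate 4 had 77.3%, against 77.8–77.9%. The same LPS animal was low at the Fbxl5 site on both alleles, with 39 on the BALB/cJ allele (79.2–91.6 in the others) and 2.44 on the C57BL/6J allele (7.19–8.44).

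A/J replicate 2 had 2.15 at the Myoc and Fbxl5 sites, where the other A/J libraries had 0, and A/J replicate 1 had 55.9 at Emilin2, against 46.3–47.9. A/J replicate 4 had 3.16 at Cd9, against 6.21–6.46. Control hybrid replicate 4 had 128 on the BALB/cJ allele at Emilin2, against 82.7–84.6, and 10.5 on the C57BL/6J allele at the Dpy19l3 site (chr7:35735355-35735555, intron 3 of 18), against 0–1.12. BALB/cJ control replicate 3 had 213 at Osm, against 88.8–98. C57BL/6J control replicate 3 had 23.3 at the chromosome 1 peak near Col19a1, against 0–1.71.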

How the results depend on the processing

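Control allele calls depended most on the processing. The 70 BALB/cJ calls became 0 with no minimum count (861 tested), 21 with a minimum of 32, 33 (of 38 tested) without peaks seen in any C57BL/6J library, and 19 to 55 with 1 animal left out (19 without control replicate 1). With no minimum, every control allele call named above was lost. The 192 LPS calls became 73 with a minimum of 32, 75 (of 78) without peaks seen in a C57BL/6J library, 103 at peaks in the upper part of scores, and 161 to 203 with 1 animal left out; the 1 call for the C57BL/6J allele became 0 under the first and second of these. Without the replicate block by animal the counts were 75 in controls and 196 with LPS. The interaction count became 1 higher and 2 lower under DESeq2, 1 lower with a minimum of 32, and 0 to 1 with 1 animal left out (1 without control replicate 4).

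The 682 LPS gains became 136 (of 747) on summed variant tags, 87 (of 308) without peaks seen in a C57BL/6J library, and 579 to 704 with 1 animal left out. The 48 losses became 75 with RLE scaling, 86 with library totals, 82 with DESeq2, 110 and 109 on all tags (BALB/cJ and C57BL/6J genome), 12 without peaks seen in a C57BL/6J library, and 45 to 74 with 1 animal left out (74 without control replicate 2). A replicate block in the LPS fit gave 699 and 40. The LPS ratio of Nek5 turned to 0.87 and 0.67, and that of Rgs1 to −0.85, on other tag sets. In control replicates 1, 2 and 4, all tags were fewer than perfectly mapped tags on either genome. Values on all tags thus do not come from the same control data. The cause of these changes was not tested.

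Peaks called in at least 2 single libraries numbered 2156 for A/J, 769 for the BALB/cJ allele and 467 for the C57BL/6J allele in controls, and 1041 for the BALB/cJ and 817 for the C57BL/6J allele with LPS. Such calls were not counted over all peaks. With the replicate block, median inbred log2 ratios were 1.20 and 1.60 (BALB/cJ over C57BL/6J, control and LPS), 0.64 (A/J over C57BL/6J), −0.45 (A/J over BALB/cJ), 0.82 and 0.46 (LPS over control in BALB/cJ and C57BL/6J).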
